A study of Mus musculus with 22 samples.

Results

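The SOX transcription factors followed here are the 10 genes Sox1, Sox2, Sox3, Sox4, Sox5, Sox6, Sox8, Sox9, Sox11 and Sox21, chosen by gene symbol in the ribosome footprint tables and joined to the RNA-Seq files by Ensembl identifier. The footprint tables hold 23081 genes and the RNA-Seq files 22623, with 20396 in both. Footprint values were found for 9 of the 10 genes and both mRNA and footprint values for 7 (Sox2, Sox3, Sox5, Sox6, Sox8, Sox9 and Sox11). Sox1 was not analysed here, and no mRNA value is given for Sox4 and Sox21. Sox4 stands under 2 Ensembl identifiers, so that 10 footprint rows describe 9 genes.

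SOX proteins bind DNA through a shared domain, the HMG box, and fall into groups by sequence. The SOXB1 factors (Sox1, Sox2, Sox3) keep neural progenitors undifferentiated, and the SOXB2 factor Sox21 counteracts them. The SOXC factors (Sox4, Sox11) act in young neurons. The SOXD factors (Sox5, Sox6) work as partners of other SOX proteins, and the SOXE factors (Sox8, Sox9) are known for their part in the glial lineages.

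The cells were neural stem cells (NSCs) from the cortex of mouse embryos of the 129SvJae strain, grown with EGF, bFGF and laminin. The study altered the Musashi RNA-binding proteins Msi1 and Msi2 in them. KH2 cells carry only the m2rTTA transactivator at the Rosa26 locus, and tetO-Msi1 and tetO-Msi2 cells also carry the respective cDNA behind a tetracycline operator in the Col1A1 locus, so that doxycycline (Dox, 1 µg/ml for 72 hours) turns it on. The C1 and C4 lines have floxed alleles of both Msi genes. Only C4 cells carry the inducible CreER that 4-hydroxytamoxifen (4-OHT, 48 hours) activates, so C1 cells with 4-OHT controlled for the drug. At E12.5 (E for embryonic day), RNA-Seq was made from KH2, tetO-Msi1 and tetO-Msi2 cultures given Dox or none, and from C1 and C4 cultures given 4-OHT or none. At E13.5 it was made from KH2 cells without Dox and from tetO-Msi1 cultures of both kinds. Ribo-Seq, which sequences the mRNA fragments that monosomes protect, was made at E12.5 from all of these lines but tetO-Msi2, treated and untreated. There were 22 samples, 14 of RNA-Seq and 8 of Ribo-Seq, and each condition had 1 library. The exception, tetO-Msi1 without Dox at E13.5, had a pair of technical replicates, which was combined. Lines or stages therefore served as the repeats in every test. The p-values rest on the spread between these cultures, which the tests moderate with that of all genes. With Dox in tetO-Msi1 cells of both stages this moderation was complete (infinite prior degrees of freedom), so a gene's own spread had no weight.

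Total counts ranged from 7889966 to 22248145 in the 6 RNA-Seq libraries of the tet lines (KH2, tetO-Msi1, tetO-Msi2) at E12.5, from 27973879 to 60791605 in the 3 conditions of E13.5, and from 45750593 to 58435172 in the 4 libraries of the floxed lines (C1, C4). Ribo-Seq libraries held 657288 to 6381242 reads, and 1 gene took 66.7% of the reads of untreated KH2 cells. Set against the read numbers that the deposited RPKM (reads per kilobase, per library size) imply, the counts came to 14.9 to 15.8% in the E12.5 tet lines and 28.2 to 34.1% in the other RNA-Seq libraries, so deposited RPKM values of these sets stand on different scales. For Ribo-Seq the counts came to 7.85 to 32.1% in the tet lines and 7.46 to 28.5% in the floxed lines. Levels are therefore given here as scaled RPKM, in which each library total was multiplied by its TMM factor from edgeR over all libraries of the assay. The targeted genes showed the labelled changes apart from Msi1 in C4 cells. With Dox, deposited RPKM of Msi1 went from 19.7 to 108 in tetO-Msi1 cells at E12.5 and from 50.5 to 208 at E13.5, and that of Msi2 from 23.2 to 128 in tetO-Msi2 cells. With 4-OHT, Msi2 went from 39.5 to 4.54 in C4 cells, while Msi1 was at 9.46 without and 9.42 with it, and whether the bases counted for Msi1 lie in the deleted part is not given in the sources used here. Summed over their lists, markers of fibroblasts, microglia and endothelium reached at most 2.67, 0.353 and 1.13 scaled RPKM in any library, against 12062 or more for the 14 of 17 neural stem and progenitor genes that had an RNA-Seq row.

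The genes lie apart in the genome (NCBIM37, mm9). Of the SOXB genes, Sox2 (ENSMUSG00000074637) spans chr3:34548927-34551383 inside the longer non-coding gene Sox2ot on the same strand, Sox3 (ENSMUSG00000045179) chrX:58144545-58146605, and Sox21 (ENSMUSG00000061517) chr14:118632454-118636252. Sox4 (ENSMUSG00000076431) spans chr13:29040788-29045582. Its second identifier (ENSMUSG00000078309) is a 405-nt reading frame at chr13:29042607-29043011 that lies inside the 3′ UTR of the first. Sox11 (ENSMUSG00000063632) spans chr12:28025562-28027574. Sox5 (ENSMUSG00000041540) spans chr6:143776945-144730497 and Sox6 (ENSMUSG00000051910) chr7:122614858-123182258, each with many introns. Sox8 (ENSMUSG00000024176) spans chr17:25702837-25707631 and Sox9 (ENSMUSG00000000567) chr11:112643538-112649074. Non-coding genes run antisense within the spans of Sox4, Sox5 and Sox21, and the protein-coding gene 1110006G14Rik overlaps that of Sox6 antisense. The non-coding gene Gm10396 overlaps the span of Sox5 on the same strand. Whether the counting used strand is not given in the sources used here.

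What the members share is the DNA-binding domain. Shown is the 60-nt stretch of the Sox2 coding sequence with the highest mean identity to the other genes. The best ungapped in-frame match of each other gene follows, so that likeness to Sox2 can be read directly. Each stretch was read from the NCBIM37 genome 5′ to 3′ on the coding strand, and capitals mark the 31 bases that are the same in all 9 genes.
Sox2, chr3:34549461-34549520, + strand: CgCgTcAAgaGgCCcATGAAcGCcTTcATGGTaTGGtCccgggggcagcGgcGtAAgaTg
Sox3, chrX:58146120-58146179, - strand: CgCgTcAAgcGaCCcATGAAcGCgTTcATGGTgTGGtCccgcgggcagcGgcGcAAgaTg
Sox21, chr14:118634780-118634839, - strand: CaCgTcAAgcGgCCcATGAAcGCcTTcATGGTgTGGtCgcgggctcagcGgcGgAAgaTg
Sox4, chr13:29044660-29044719, - strand: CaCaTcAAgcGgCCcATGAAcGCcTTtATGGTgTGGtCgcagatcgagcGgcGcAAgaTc
Sox11, chr12:28027073-28027132, - strand: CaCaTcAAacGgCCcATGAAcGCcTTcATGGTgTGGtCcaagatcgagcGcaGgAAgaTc
Sox5, chr6:143789743-143789802, - strand: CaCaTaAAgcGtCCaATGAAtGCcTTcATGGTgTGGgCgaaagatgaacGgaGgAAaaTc
Sox6, chr7:122633226-122633285, - strand: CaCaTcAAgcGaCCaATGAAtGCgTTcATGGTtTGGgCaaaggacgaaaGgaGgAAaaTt
Sox8, chr17:25707117-25707176, - strand: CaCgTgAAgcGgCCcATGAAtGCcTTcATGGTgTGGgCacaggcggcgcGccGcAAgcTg
Sox9, chr11:112644208-112644267, + strand: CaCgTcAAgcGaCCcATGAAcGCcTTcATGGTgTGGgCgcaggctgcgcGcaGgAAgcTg
Identity to the Sox2 stretch was 90.0% in Sox3 and 88.3% in Sox21, the other SOXB genes. It was 75.0 to 78.3% in the SOXC and SOXE genes and 65.0% in both SOXD genes. The likeness hardly reached the length of a footprint: at most 1.67% of the 31-mers of any member's coding sequence (Sox9, shared with Sox10) recurred in the transcripts of another gene. For Sox5, this stretch is not among the exons over which its footprints were counted, which cover 324 nt.

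Musashi proteins bind short RNA motifs around UAG. As a description of the transcripts, the longest annotated 3′ UTR of each member was searched on the sense strand for GTAGT and ATAGT, DNA letters for the pentamers GUAGU and AUAGU. Of 19381 genes with a 3′ UTR of at least 50 nt, 59.4% held either pentamer, with a median of 0.818 per kilobase. Sox11 had 2 in 524 nt, or 3.82 per kilobase, a density above that of 94.1% of genes. Sox6 had 9 in 5574 nt, Sox5 had 6 in 4839 nt, Sox2, Sox4, Sox8 and Sox9 had 1 each, and none was found in these UTRs of Sox3 and Sox21. The sites of Sox11 and of the members with 1 site follow with 10 bases on each side, the pentamer in capitals.
Sox11, first, chr12:28025923-28025947, - strand, 149 nt after the stop codon: agtgaaatgaGTAGTtttaaacaga
Sox11, second, chr12:28025826-28025850, - strand, 246 nt after the stop codon: gtgtctcaagGTAGTtgcacaccta
Sox2, chr3:34551205-34551229, + strand, 918 nt after the stop codon: tttattttccGTAGTtgtattttaa
Sox4, chr13:29042353-29042377, - strand, 1201 nt after the stop codon: agtttttaaaATAGTgtaggataat
Sox8, chr17:25703958-25703982, - strand, 306 nt after the stop codon: agataagaagATAGTtatgcctaag
Sox9, chr11:112647507-112647531, + strand, 693 nt after the stop codon: gtgtgttgttATAGTaacataaata
A match describes letters only and is no measured binding site.

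In untreated tet lines at E12.5, Sox2 was the highest of the 7 genes with mRNA values and Sox8 the next. On the scaled RPKM scale, Sox2 mRNA was at 1425 in KH2, 1285 in tetO-Msi1 and 1060 in tetO-Msi2 cells, and Sox8 mRNA at 717, 720 and 537. Every value of Sox2 lay above every value of Sox8. Sox3 (219 to 255) and Sox9 (218 to 263) overlapped each other and lay below Sox8. Sox11 (123 to 140) was below both. Sox5 (64.0 to 85.5) and Sox6 (66.2 to 88.5) were lowest and overlapped. In the footprints of untreated KH2 and tetO-Msi1 cells, Sox4 (629 and 899), Sox2 (636 and 814) and Sox8 (482 and 637) were the 3 highest members and overlapped as neighbours. They were followed by Sox9 (155 and 210), Sox3 (108 and 188) and Sox11 (138 and 139), and then by Sox21 (56.5 and 83.5), Sox6 (44.8 and 48.1) and Sox5 (23.7 and 47.6). The second Sox4 entry, inside the 3′ UTR, had 82.8 and 64.9, which was 13.2 and 7.22% of the main entry.

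**Figure D1:**
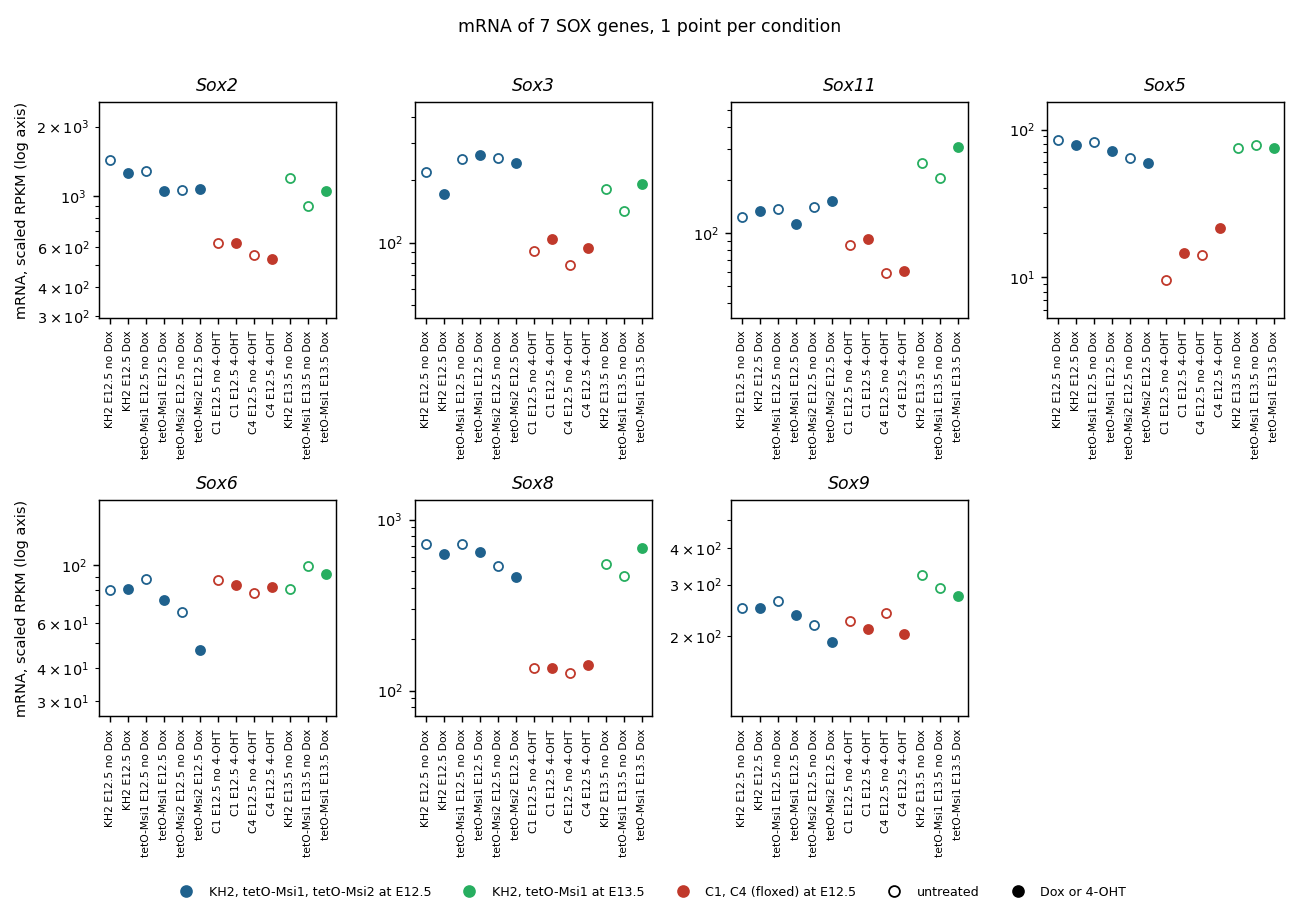
mRNA of 7 SOX genes in scaled RPKM (log axis, its range set for each gene) in each of the 13 RNA-Seq conditions. Open points are untreated and filled points treated cells, with no error bars because each condition had 1 library. Sox2, Sox3, Sox5, Sox8 and Sox11 are lower in all 4 floxed libraries (red) than in all 6 E12.5 libraries of the tet lines (blue), while Sox6 and Sox9 overlap.

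Most SOX genes had lower mRNA in the floxed than in the tet lines, without any treatment. Among untreated E12.5 cells, 5 of the 7 genes were lower in C1 and C4 cells than in KH2, tetO-Msi1 and tetO-Msi2 cells, none was higher, and Sox6 and Sox9 did not pass the test (edgeR quasi-likelihood test, 2 libraries against 3, Benjamini-Hochberg adjusted p under 0.05). The background of this comparison was high: of 12211 genes, 33.3% were called lower and 33.0% higher in the floxed lines. The median log2 difference was -1.10 over the 7 genes and 0.00 over all genes tested. Counting treated libraries too, all 4 floxed libraries lay below all 6 tet libraries of E12.5 for 5 of the 7 genes, as they did for 32.2% of the genes tested. The floxed and the tet libraries also differed in the ratio of counts to RPKM-implied reads given above, and the lines, their genotypes and what sets this ratio cannot be told apart.

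Among the SOXB1 genes, Sox2 mRNA stood at 625 in C1 and 554 in C4 cells, both below the lowest tet line (1060). The log2 difference was -1.10 ± 0.15 (SE), a 2.14-fold lower level (edgeR adjusted p = 0.00083). Sox3 stood at 91.4 in C1 and 78.1 in C4 cells against 219 or more in the tet lines, a log2 difference of -1.52 ± 0.12 (edgeR adjusted p = 8.9e-05). Both genes were thus separated by line set with no overlap.

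The SOXC gene Sox11 was at 85.0 in C1 and 58.9 in C4 cells, and at 123 to 140 in the tet lines. Its log2 difference of -0.89 ± 0.17 was the smallest of the 5 that passed (edgeR adjusted p = 0.0033). The SOXD genes parted ways. Sox5 had the lowest floxed values relative to the tet lines, 9.57 in C1 and 14.1 in C4 cells against 64.0 to 85.5, a log2 difference of -2.71 ± 0.23 or 6.56-fold (edgeR adjusted p = 0.00012). Sox6 was at 87.9 and 78.0, within the range of the tet lines, with a log2 difference of 0.08 ± 0.14 (edgeR adjusted p = 0.64) that changed sign without tetO-Msi2 cells (-0.04).

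The SOXE genes also differed from each other. Sox8 was at 135 in C1 and 127 in C4 cells against 537 to 720, a log2 difference of -2.33 ± 0.16 or 5.04-fold (edgeR adjusted p = 5.9e-05). Sox9 was at 224 and 240, inside the tet range of 218 to 263, with a log2 difference of -0.07 ± 0.11 (edgeR adjusted p = 0.56). In the floxed lines the order of levels was therefore Sox2, Sox9, Sox8 and then Sox3, Sox6 and Sox11, whose ranges overlapped as neighbours, with Sox5 last. Leaving out any line kept the calls of all 5 genes.

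Listed progenitor, glial and neuronal genes were also called in this comparison, in which 33.3% of all genes were lower and 33.0% higher. Of the 14 neural stem and progenitor genes tested, 8 were lower and 2 higher in the floxed lines, with a median log2 difference of -0.74. Hes5, a Notch target, was lower by a log2 difference of -4.90, and Pou3f2 (-1.73), Notch1 (-1.66), Egfr (-1.50), Prom1 (-1.26), Pou3f4 (-1.24), Nfix (-0.77) and Pou3f3 (-0.58) were also lower, while Nes (1.44) and Gli3 (0.25) were higher. Of 7 glial genes, Gfap, an astrocyte filament protein, differed by 6.40, S100b by 2.79 and Olig2 by 0.52, and Cspg4 was lower (-1.19). Deposited RPKM of Gfap was 0 to 0.955 in the 6 tet libraries of E12.5 and 56.6 to 151 in the 4 floxed libraries. Of 6 neuronal genes, Stmn2 (2.92), Elavl3 (1.57) and Dcx (1.23) were higher, and Neurog2 (-2.82), Prox1 (-1.10) and Tubb3 (-0.55) lower. These are log2 differences from the same edgeR test. Summed scaled RPKM was 12062 to 15996 in the tet and 15062 to 16398 in the floxed libraries for the progenitor list, 2735 to 3716 and 3485 to 3930 for the glial list, and 63.4 to 102 and 63.1 to 81.3 for the neuronal list. For markers of other cell types it was 0.0939 to 0.850 and 0.158 to 2.67 (5 fibroblast genes), 0 to 0.353 and 0.0217 to 0.219 (4 of 5 microglia genes), and 0.302 to 0.754 and 0.695 to 1.13 (4 endothelium genes, of which Kdr was higher by 1.35). Of these lists, 2 fibroblast, 3 microglia and 1 endothelium gene were at 0 in all tet libraries, and 2 microglia genes in all floxed libraries. The part of these differences in the SOX values was not tested. In bulk libraries such as these, fewer cells that express a gene and less RNA per cell cannot be told apart.

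**Figure D2:**
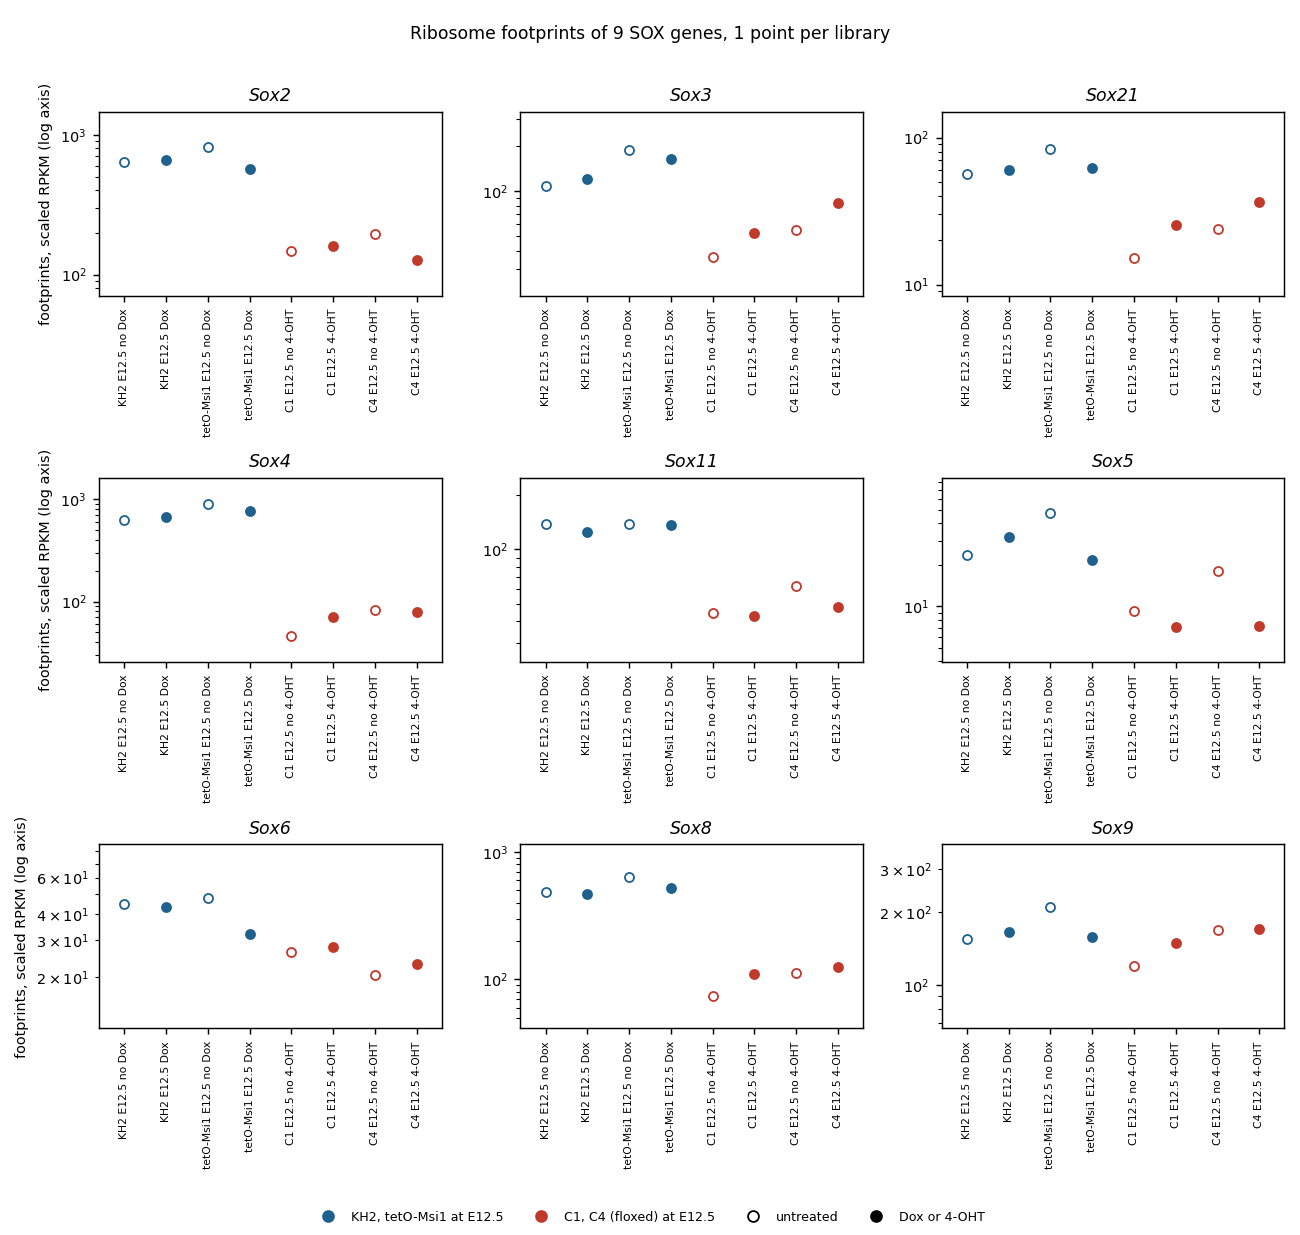
Ribosome footprints of 9 SOX genes in scaled RPKM (log axis, its range set for each gene) in the 8 Ribo-Seq libraries, all of E12.5, 1 point a library. For 8 of the genes every floxed library (red) lies below every tet library (blue), and Sox9 overlaps.

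Footprints of most SOX genes were also lower in the floxed lines, and they added Sox4 and Sox21. The calls differed from those of mRNA for Sox6, which passed in footprints alone, and Sox5, which passed in mRNA alone. The comparison of untreated C1 and C4 with untreated KH2 and tetO-Msi1 cells was added after the values were seen. Of the 9 genes, 7 had fewer footprints in the floxed lines and none had more (edgeR quasi-likelihood test on footprint counts, 2 libraries against 2), where 15.5% of 12097 genes were called lower and 16.1% higher. The median log2 difference was -1.81 over the 9 genes and 0.03 over all genes tested. With treated libraries counted, all 4 floxed libraries lay below all 4 tet libraries for 8 of the 9 genes, as they did for 18.0% of the genes tested. The Ribo-Seq sets also differed in the share of reads that the top gene of a library took. It was 66.7 and 17.9% in KH2 cells without and with Dox, 11.1 and 3.50% in tetO-Msi1 cells, and 0.997 to 1.26% in the floxed libraries. The lines, their genotypes and what sets this share cannot be told apart.

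Sox4 had the largest difference of the 9 genes. Its scaled footprint RPKM was 629 in KH2 and 899 in tetO-Msi1 cells, and 45.9 in C1 and 83.4 in C4 cells. The log2 difference was -3.66 ± 0.37, or 12.6-fold (edgeR adjusted p = 4.1e-05). The treated libraries lay beside the untreated ones, at 672 in KH2 and 761 in tetO-Msi1 cells with Dox and 70.5 in C1 and 79.3 in C4 cells with 4-OHT. The second Sox4 entry differed likewise, by -4.29 ± 0.70 (edgeR adjusted p = 0.00081), on 5 and 10 reads in the untreated floxed lines, and this value was -2.95 without C1 and -5.78 without C4 cells. Sox21 was at 56.5 and 83.5 in the tet lines and at 15.1 and 23.8 in the floxed lines, a log2 difference of -2.00 ± 0.33 (edgeR adjusted p = 0.00092).

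Of the genes with mRNA values, Sox2 footprints were at 636 and 814 in the tet lines and 148 and 195 in the floxed lines, a log2 difference of -2.18 ± 0.25 (edgeR adjusted p = 8.6e-05). Sox8 footprints were at 482 and 637 against 74.2 and 113 (-2.69 ± 0.27, edgeR adjusted p = 3.9e-05). Sox3 and Sox11 were lower by -1.81 ± 0.30 and -1.47 ± 0.24. Sox6, whose mRNA did not pass the test, had footprints at 44.8 and 48.1 in the tet lines and 26.5 and 20.5 in the floxed lines, a log2 difference of -1.07 ± 0.23 (edgeR adjusted p = 0.0046). In the treated libraries alone the Sox6 difference was -0.58 (edgeR adjusted p = 0.11).

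Sox5 and Sox9 did not pass. Sox5 was at 23.7 and 47.6 against 9.27 and 17.9, on 8 to 44 reads a library, and its log2 difference of -1.63 ± 0.59 had an edgeR adjusted p of 0.057, which was 0.043 without KH2 and 0.010 without C4 cells but 0.52 without tetO-Msi1 and 0.17 without C1 cells. The difference ranged from -2.09 to -0.94 over these fits. Sox9 was at 155 and 210 against 120 and 168, a log2 difference of -0.44 ± 0.25 (edgeR adjusted p = 0.20). With a line left out, its difference ranged from -0.67 without C4 cells (edgeR adjusted p = 0.027) to -0.16 without C1 cells (0.63).

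Footprints of the listed progenitor genes were split as well. Of 14 tested, 8 were lower in the floxed lines, namely Hes5 (log2 difference -5.25), Notch1 (-2.41), Nfix (-2.01), Pou3f4 and Pou3f2 (both -1.74), Prom1 (-1.73), Egfr (-1.64) and Pou3f3 (-1.39), and 4 were higher, namely Vim (1.72), Fabp7 (1.51), Hes1 (1.18) and Nes (0.81). Their median was -1.68. Of 7 glial genes, Gfap (6.75) and S100b (2.52) were higher and Cspg4 (-2.05) and Pdgfra (-1.65) lower, and of 5 neuronal genes Stmn2 (2.04) and Tubb3 (1.41) were higher and Prox1 (-1.19) lower. The fibroblast gene Col3a1, a collagen, was higher by 4.02. These are log2 differences from the same edgeR test, and their part in the SOX values was not tested.

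Between the stages, SOX genes were called in both directions, in a share near that of all genes (6039 of 11893). In untreated KH2 and tetO-Msi1 cells, E13.5 differed from E12.5 in 4 of 7 genes, 1 higher and 3 lower (edgeR quasi-likelihood test with line as a block), where 25.6% of 11893 genes were called higher and 25.2% lower. The E13.5 libraries also had another ratio of counts to RPKM-implied reads (28.2 to 32.0%) than the tet libraries of E12.5 (14.9 to 15.8%), and stage and what sets this ratio cannot be told apart. The median log2 difference was -0.13 over the 7 genes and 0.01 over all genes tested.

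Sox11, the SOXC factor of young neurons, was the gene that rose. Its scaled RPKM went from 123 at E12.5 to 249 at E13.5 in KH2 cells and from 136 to 205 in tetO-Msi1 cells, a log2 difference of 0.78 ± 0.13 (edgeR adjusted p = 0.00052). The genes that fell were both SOXB1 genes and Sox8. Sox3 went from 219 to 182 in KH2 and from 252 to 141 in tetO-Msi1 cells (-0.57 ± 0.14, edgeR adjusted p = 0.0060), and Sox8 from 717 to 548 and from 720 to 469 (-0.52 ± 0.11, edgeR adjusted p = 0.0026). Sox2 went from 1425 to 1191 and from 1285 to 903 (-0.40 ± 0.11, edgeR adjusted p = 0.012, and 0.082 without the line as a block). The 4 genes moved in the same direction in both lines. Sox9 (0.25 ± 0.11, edgeR adjusted p = 0.079), Sox5 (-0.13 ± 0.12) and Sox6 (0.07 ± 0.11) did not pass.

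Between the stages, 4 of the 14 progenitor genes were higher at E13.5 and 5 lower, where 25.6% of all genes were higher and 25.2% lower. The higher ones were Nes (log2 difference 1.19), Egfr (0.85), Gli3 (0.69) and Hes1 (0.54), and the lower ones Pou3f4 (-0.47), Pou3f3 (-0.46), Hes5 (-0.35), Vim (-0.33) and Lhx2 (-0.32). Gfap (3.75) and Olig1 (0.45) were higher and Pdgfra (-0.56) lower of 7 glial genes. Elavl3 (1.26), a neuronal RNA-binding protein, was higher and Neurog2 (-4.17) lower of 5 neuronal genes. Summed scaled RPKM of the E13.5 libraries was 15026 to 17465 for the progenitor, 3573 to 4832 for the glial and 81.1 to 117 for the neuronal list, and at most 1.10 for the fibroblast, 0.0544 for the microglia and 0.591 for the endothelium list. The part of these differences in the SOX values was not tested.

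**Figure D3:**
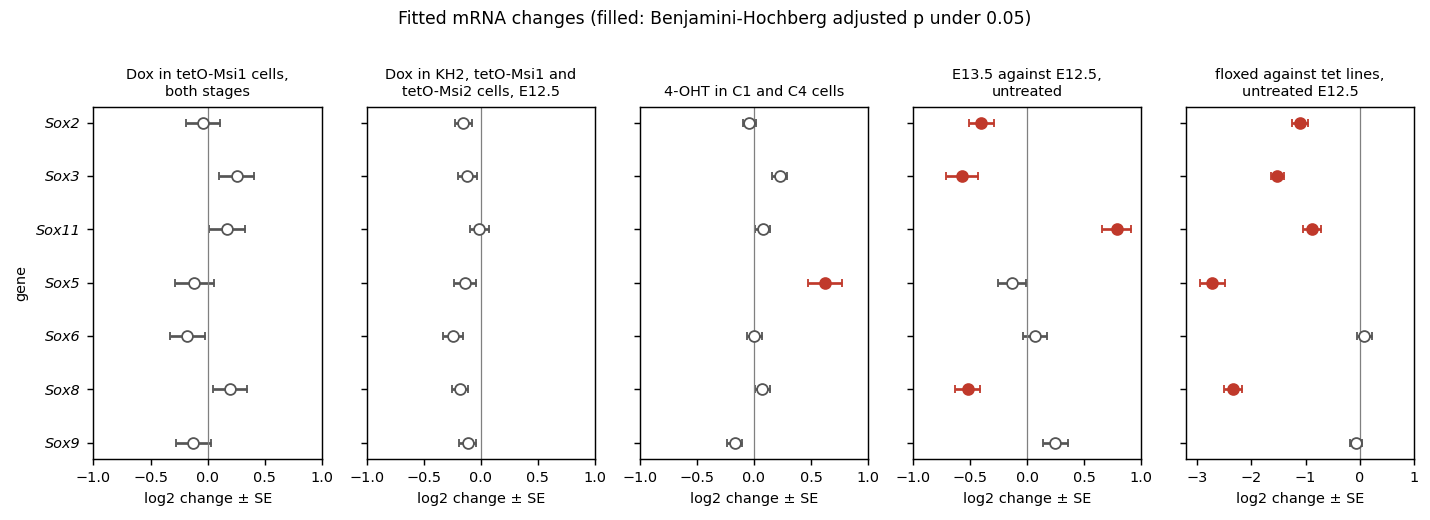
Fitted log2 differences of mRNA with their standard errors for 7 SOX genes in 5 edgeR comparisons, of which the last has a wider axis. Filled red points have a Benjamini-Hochberg adjusted p under 0.05. None is filled for Dox, Sox5 alone for 4-OHT, 4 genes for stage and 5 for the floxed against the tet lines.

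With Dox, no SOX mRNA passed either test as designed. Sox6 passed in a fit without KH2 cells, in which more of all genes were called. With Dox in tetO-Msi1 cells of both stages (stage as a block), 0 of 7 genes passed, where 3.60% of 11938 genes were called, and none of the 7 had an unadjusted p under 0.05. The spread in this test was that of all genes. Its p-values thus do not reflect how far a SOX gene's own change differed between the stages. With Dox in all 3 tet lines at E12.5 (line as a block), 0 of 7 passed, where 0.451% of 11969 genes were called. Sox8 (log2 change -0.18 ± 0.07) and Sox6 (-0.25 ± 0.09) had an unadjusted p of 0.015, and both adjusted p were 0.24 in edgeR. Without KH2 cells, Sox6 changed by -0.38 with an edgeR adjusted p of 0.028, where 510 of 11838 genes were called. With KH2 cells 54 of 11969 were. In tetO-Msi1 cells of both stages the Sox6 change was -0.18 ± 0.15 (edgeR adjusted p = 0.67). Its scaled RPKM went from 80.4 to 80.8 in KH2, from 88.5 to 73.3 in tetO-Msi1 and from 66.2 to 47.0 in tetO-Msi2 cells. DESeq2 called 0 of the 7 genes in both comparisons. The tests share the tetO-Msi1 pair of E12.5. Among the listed genes, Gfap (-0.77) and Pdgfra (-0.54) fell with Dox in tetO-Msi1 cells (edgeR). No other progenitor, neuronal or glial gene passed in either comparison.

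No SOX mRNA reached a 2-fold change in any of the 6 pairs of treated and untreated libraries, on the scale of log2(RPKM + 0.5). The share of all genes that did was 0.0984% in KH2, 0.354% in tetO-Msi1 and 0.387% in tetO-Msi2 cells with Dox at E12.5, and 0.916% in tetO-Msi1 cells with Dox at E13.5. It was 0.110% in C1 and 1.14% in C4 cells with 4-OHT. At 1.5-fold, Sox8 and Sox11 were past the limit in tetO-Msi1 cells of E13.5, where 8.22% of all genes were, and Sox5 in C4 cells, where 5.97% were. No SOX gene was past 1.5-fold in the other pairs, with 0.944% of all genes in KH2, 3.38% in tetO-Msi1 and 3.08% in tetO-Msi2 cells at E12.5 and 1.43% in C1 cells. Without the added 0.5, the Sox5 log2 change was 0.62 in C1 and 0.69 in C4 cells, past 1.5-fold in both. The changes that follow are log2 ratios of deposited RPKM less the median gene of the pair, which lay between -0.04 and 0.08, with 95% intervals that cover counting error only.

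At E13.5, Dox in tetO-Msi1 cells went with higher Sox11 (from 205 to 309 scaled RPKM) and Sox8 (from 469 to 680). The log2 changes were 0.59 (interval 0.56 to 0.62) and 0.54 (0.52 to 0.56). Before the median gene was taken off, both were past 1.5-fold, and after it Sox11 alone. At E12.5 the same genes went from 136 to 112 and from 720 to 648, changes of -0.26 (-0.36 to -0.16) and -0.13 (-0.17 to -0.09). Sox2 likewise had 0.22 at E13.5 (from 903 to 1047) and -0.28 at E12.5 (from 1285 to 1045). The direction thus differed between the stages for all 3 genes. Sox3 was higher at both stages, by 0.42 at E13.5 (from 141 to 190) and by 0.09 at E12.5 (from 252 to 264), and its fitted change over both was 0.26 ± 0.15 (edgeR adjusted p = 0.46). In KH2 cells, which have no Msi cDNA, Dox went with lower Sox3 (from 219 to 172, a change of -0.36), Sox2 (-0.19) and Sox8 (-0.19). The KH2 response to Dox at E13.5 was not analysed here.

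**Figure D4:**
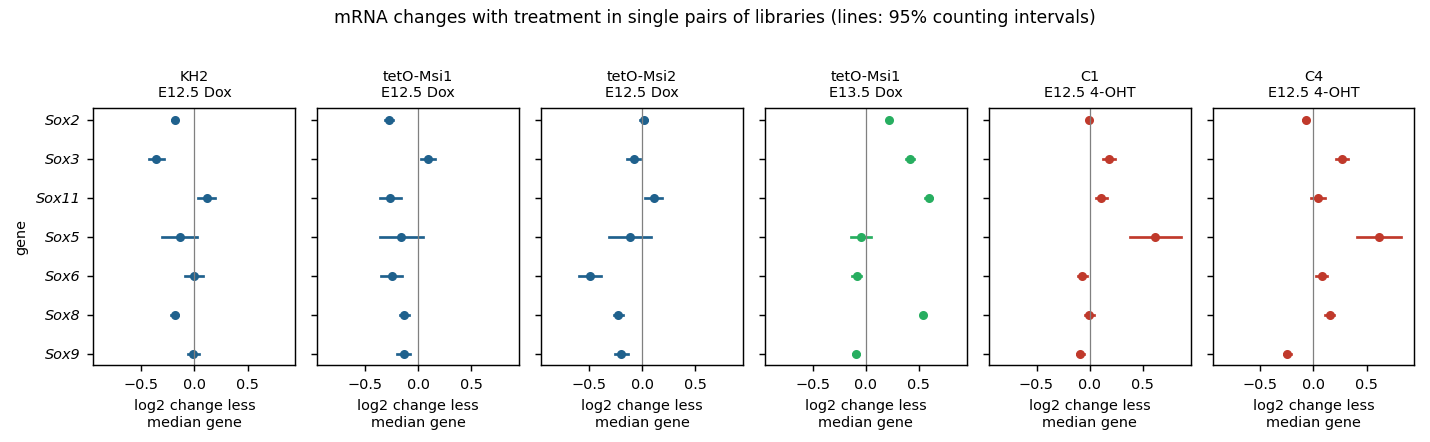
Log2 change of mRNA with treatment less the median gene, for 7 SOX genes in each of the 6 pairs of libraries. Lines are 95% counting intervals. Sox8 and Sox11 lie right of 0 at E13.5 and left of it at E12.5 in tetO-Msi1 cells, and Sox5 lies at 0.62 in both floxed lines.

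With 4-OHT, Sox5 was the 1 of the 7 genes that changed in C1 and C4 cells together. Its scaled RPKM went from 9.57 to 14.7 in C1 cells and from 14.1 to 21.7 in C4 cells, on 245 to 557 reads. The log2 change was 0.62 ± 0.15, or 1.54-fold (edgeR with line as a block, adjusted p = 0.0498), where 5.50% of 11626 genes were called. The call was lost with RLE normalization (adjusted p = 0.052), with DESeq2 (0.19) and without the line as a block (0.58), and the change was of like size in C1 cells, which have no Cre (0.62 less the median gene in both lines). Sox3 changed by 0.23 ± 0.07 (edgeR adjusted p = 0.091, and 0.039 without the filter on low counts), Sox9 by -0.17 ± 0.06 (0.19), and Sox2, Sox6, Sox8 and Sox11 by -0.04 to 0.08. Deletion of the Msi genes therefore has no test here apart from the drug. Beside Sox5, Egfr (0.54) and Olig1 (0.36) were called higher among the listed genes.

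Translation efficiency (TE) was taken as footprint RPKM divided by mRNA RPKM of the same condition, and is given as log2 TE less the median gene of the library. The exons counted in both assays match for Sox2, Sox11 and, once bases listed more than once are merged, Sox9. They differ for Sox3, Sox5, Sox6 and Sox8, whose TE levels rest on unlike parts of the gene. Over the 4 untreated lines, 2 of 7 genes, Sox11 and Sox8, had a TE above that of the median gene and none below (limma, 4 lines), where 16.3% of 7156 genes were called higher and 16.9% lower. The median was 0.54 over the 7 genes and -0.01 over all genes tested.

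Sox11 stood at 1.37 in KH2, 1.20 in tetO-Msi1, 0.16 in C1 and 1.20 in C4 cells, a mean of 0.99 ± 0.24 (limma adjusted p = 0.018). C1 cells were apart from the other lines. In KH2, tetO-Msi1 and C4 cells it exceeded 91.7, 90.2 and 88.6% of genes, and 57.1% in C1 cells. Sox8 stood at 0.62, 1.00, 0.23 and 0.93 in the same order, a mean of 0.71 ± 0.20 (limma adjusted p = 0.029). Both calls were lost without KH2, without tetO-Msi1 or without C4 cells, with limma adjusted p of 0.059, 0.064 and 0.080 for Sox11 and 0.069, 0.12 and 0.12 for Sox8. The Sox8 call was also lost with a pseudocount of 0.5 (limma adjusted p = 0.053).

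Sox9 stood at 0.51, 0.85, 0.19 and 0.59 (0.54 ± 0.18, limma adjusted p = 0.055) and passed in the treated libraries (0.67, adjusted p = 0.017). Sox2 and Sox6 had means near the median gene, -0.20 ± 0.26 and -0.20 ± 0.25. Their values fell on both sides of it by line set. Sox2 was at 0.03 in KH2 and 0.52 in tetO-Msi1 cells, and at -0.98 in C1 and -0.40 in C4 cells. Sox6 was at 0.35 and 0.30, and at -0.64 and -0.83. The treated libraries lay on the same sides for Sox2 (0.23 and 0.25 with Dox, -0.85 and -0.91 with 4-OHT), while Sox6 was at -0.06 in tetO-Msi1 cells with Dox. The difference in TE between line sets was not tested. Sox5 ranged from -0.66 to 1.45 and Sox3 from -0.24 to 0.76, and neither passed, although Sox5 did without KH2 cells (0.98, limma adjusted p = 0.034). Of the listed genes, TE was above the median gene for Notch1 (1.85) and Egfr (1.20) and below it for Pou3f3 (-1.16) of 12 progenitor genes, above it for Tubb3 (3.15) and Dcx (2.88) of 3 neuronal genes, and above it for Cspg4 (1.46) and Pdgfra (1.45) of 5 glial genes (limma).

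**Figure D5:**
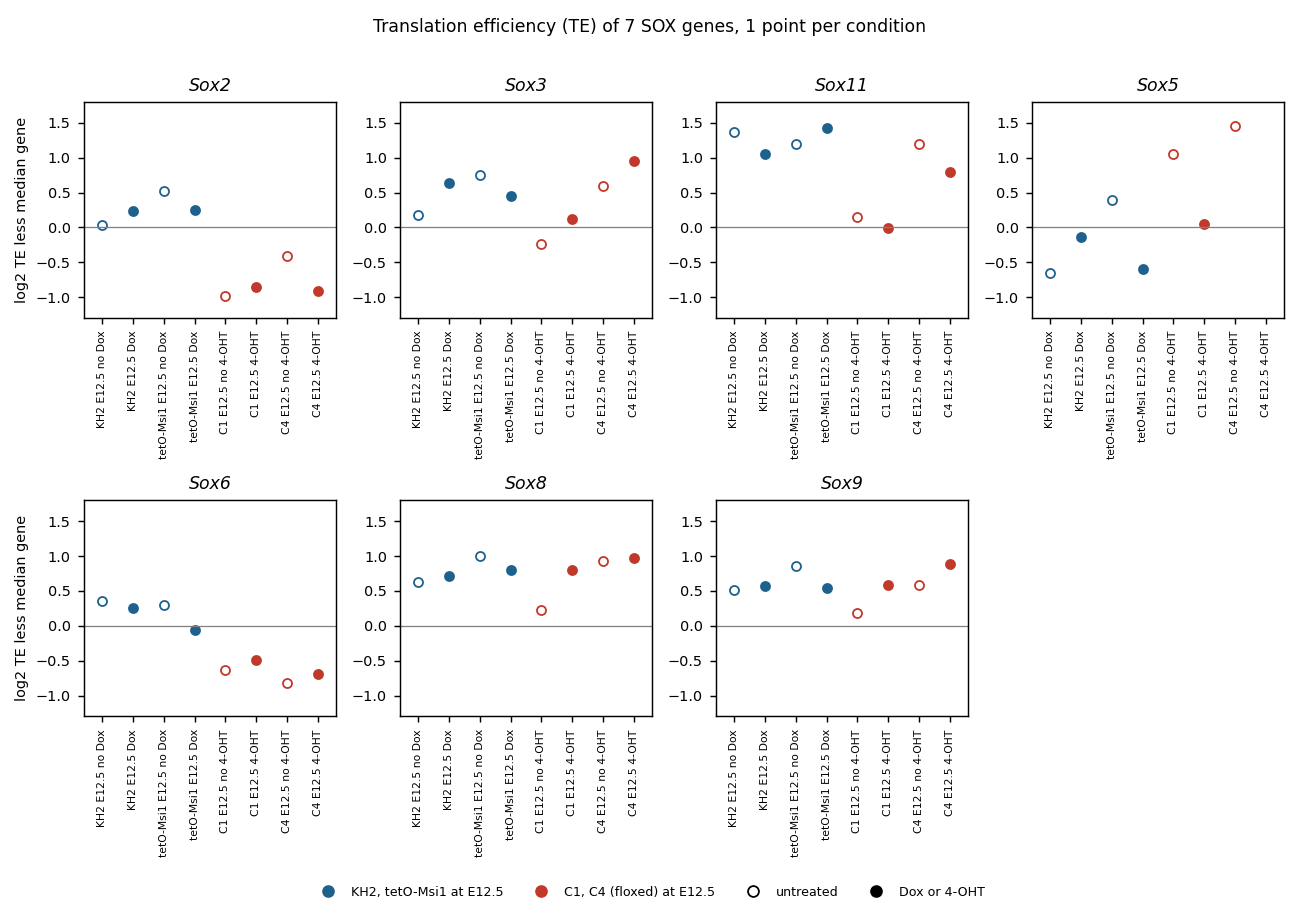
Log2 TE less the median gene of the library for 7 SOX genes in the 8 conditions with both assays, 1 point each. Open points are untreated, and the grey line is the median gene. Sox8 and Sox9 lie above 0 in all 8 conditions, and Sox2 lies above 0 in the tet lines (blue) and below 0 in the floxed lines (red). Sox5 in C4 cells with 4-OHT had 5 footprint reads and is not shown.

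For changes in TE with treatment, the median gene of each pair is the reference. In C1 cells with 4-OHT the median gene changed by -1.46 on the log2 TE scale, against 0.14 in KH2 cells, 0.05 in tetO-Msi1 cells and -0.23 in C4 cells. TE rests on deposited RPKM, so this change includes any shift of the RPKM scale. Ribo-Seq counts came to 28.5% of RPKM-implied reads in untreated C1 cells and 11.2% with 4-OHT. The values were 32.1 and 12.3% in KH2, 10.8 and 7.85% in tetO-Msi1 and 7.53 and 7.46% in C4 cells. In untreated KH2 cells 1 gene took 66.7% of the reads. The part of this ratio in the median change was not tested. Under the study's limits (over 5 reads in all 4 libraries, mRNA change under 1.5-fold, TE change of at least 3-fold) 1.10% of genes were called in KH2, 1.29% in tetO-Msi1, 38.5% in C1 and 2.60% in C4 cells. The read and mRNA limits left 7 SOX genes in KH2 and tetO-Msi1 cells and 6 in C1 and C4 cells. Sox11 in C1 cells (log2 TE change -1.60) was the SOX gene past these limits, and 0 were past them once the pair was centred on its median gene. Sox5 in C1 cells had a larger log2 TE change (-2.43, on 27 and 7 footprint reads) but was left out by its mRNA change (0.62).

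With Dox in tetO-Msi1 cells, Sox2 (-0.27, counting interval -0.42 to -0.12), Sox3 (-0.32, -0.56 to -0.08), Sox9 (-0.32, -0.54 to -0.09) and Sox8 (-0.20, -0.39 to -0.02) had a lower TE relative to the median gene. Sox11 had 0.21 (-0.08 to 0.50). Footprints of Sox4 went from 899 to 761 scaled RPKM, a log2 change of -0.27 less the median gene (-0.38 to -0.16). In KH2 cells with Dox, Sox2 (0.20) and Sox3 (0.47) had a higher TE, and Sox8 and Sox9 lay within counting error of 0. With 4-OHT, Sox2 TE changed by -0.50 (-0.72 to -0.28) in C4 and 0.16 (0.01 to 0.32) in C1 cells, and Sox3 by 0.38 and 0.40. Sox8 changed by 0.60 (0.36 to 0.84) in C1 and 0.04 (-0.25 to 0.34) in C4 cells, and Sox9 by 0.43 (0.30 to 0.57) in C1 and 0.31 (0.14 to 0.47) in C4 cells. Sox11 changed by -0.40 (-0.73 to -0.07) in C4 and -0.14 (-0.41 to 0.13) in C1 cells. These pairs have no replicate check.

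Of the other SOX genes, 9 were looked up and 8 had an RNA-Seq row, with Sox10, Sox12 and Sox13 at a mean deposited RPKM of at least 1. Sox12, the remaining SOXC factor, was at 28.5 to 51.1 in the E13.5 libraries and was higher there than at E12.5 (log2 difference 0.47 ± 0.14, edgeR adjusted p = 0.015). Sox13, a SOXD factor, was lower at E13.5 (-0.39 ± 0.13, edgeR adjusted p = 0.032) and rose with 4-OHT (0.46 ± 0.09, edgeR adjusted p = 0.025). None of the 3 differed in mRNA between floxed and tet lines by the test, and footprints of Sox10, the remaining SOXE factor, were lower in the floxed lines (-2.39 ± 0.49, edgeR adjusted p = 0.0035), as were those of Sox12 (-1.43 ± 0.47, edgeR adjusted p = 0.037). Against the median gene, TE was higher for Sox10 (1.48 ± 0.26) and lower for Sox12 (-2.22 ± 0.42) and Sox13 (-1.52 ± 0.29), with limma adjusted p of 0.0048, 0.0067 and 0.0069.

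The genes most like each member were found by Pearson r of log2(deposited RPKM + 0.5) over the 13 conditions among the 8165 genes whose mean RPKM reached 5. The 3 most like genes of each member made 21 in all. They included Dpm3 and Nol3 for Sox2 (r of 0.96 and 0.95). They were 1190002H23Rik, Gpc1 and H2afv for Sox3 (0.92 to 0.90), Pitpnc1, Ak1 and Spata13 for Sox5 (0.98 to 0.97), and Synrg, Clip2 and Sestd1 for Sox6 (0.99). For Sox8 they included Zfyve1 and Pgpep1 (0.99), and they were for Sox9 D17H6S53E, Npepl1 and Fam120c (0.99), and for Sox11 Repin1, Smtn and Fbf1 (0.98 to 0.97). These conditions share the difference in the ratio of counts to RPKM-implied reads, and its part in these correlations was not tested. On scaled RPKM, 2 of these 21 genes stayed among the 3 most like genes of their member (Pitpnc1 for Sox5 and Pgpep1 for Sox8), and the closest genes of Sox2, Sox8 and Sox11 were Ptov1 (0.99), Poll (0.99) and Ppp1r12b (0.97).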

How the data were processed

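For each RNA-Seq library the authors deposited a read count, a length and an RPKM for every Ensembl gene, not further normalized, and for each Ribo-Seq library a count and an RPKM over listed coding exons. The submitters' processing notes name Bowtie, TopHat and mm9, with versions not given in the sources used here. RPKM of exons listed more than once counts their reads more than once, so counting intervals used counts divided by that overlap (2.34 for Sox4, 1.83 for Sox3, 1.39 for Sox9, 1.11 for Sox6). The edgeR tests on footprints and the read minimum for TE used the counts without this division. The deposited values hold no other per-sample columns.

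Counts were tested in edgeR 4.0.16 (R 4.3.3) with TMM normalization, a filter that kept genes reaching 1 CPM in 2 or more libraries, quasi-likelihood tests and p-values adjusted by Benjamini-Hochberg over all genes tested, at 0.05. TE was tested with limma 3.58.1 on genes with more than 5 reads in every library. DESeq2 1.42.0 was an alternative. The SOX genes, the gene lists (other SOX, neural stem and progenitor, neuronal, glial and markers of other cell types) and the tests were chosen with earlier results of these data known. Listed genes are named where they passed a test. Some genes of like pattern are not reported here.

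The steps were tested on simulated data with 200 genes changed 4-fold. The edgeR comparisons recovered 98.5 to 99.5% of them on mRNA (11535 to 11989 genes) and 60.0% on footprints (11837 genes), and limma 83.5% on TE (7156 genes). Of the unchanged genes, 2 to 11 were called in a test. Simulated counts for edgeR had 1 dispersion for all genes and no line or stage differences. The recovery of changes smaller than 4-fold was not tested. Chi-square per degree of freedom was 1.71 for the technical replicates (10957 genes) and 13.0 for untreated KH2 compared with tetO-Msi1 cells of E12.5 (10512 genes). Figures and joins used Python 3.11.15.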

Additional observations from a re-analysis of the deposited data

Results flagged for a closer look

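These values are log2 changes with treatment less the median gene of the pair. They are listed because the same treatment went with opposite directions in different lines or stages, with counting intervals that leave out 0 on both sides. With 1 library a condition, none of these differences was tested. RNA-Seq technical replicates differed by more than counting error (chi-square per degree of freedom 1.71), so the intervals are too narrow for mRNA. Some intervals end near 0, as for Sox3 mRNA in tetO-Msi2 cells (-0.14 to -0.02) and Sox2 TE in C1 cells (0.01 to 0.32).

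Between the stages of tetO-Msi1 cells with Dox, mRNA changes were -0.28 at E12.5 and 0.22 at E13.5 for Sox2, -0.13 and 0.54 for Sox8, and -0.26 and 0.59 for Sox11. The stages also differed in the ratio of counts to RPKM-implied reads, and stage and what sets this ratio cannot be told apart. Between KH2 and tetO-Msi1 cells of E12.5, Dox went with Sox3 mRNA changes of -0.36 and 0.092 and Sox11 mRNA changes of 0.11 and -0.26. The TE changes in the same lines were 0.20 and -0.27 for Sox2 and 0.47 and -0.32 for Sox3. Between the tetO-Msi1 and the tetO-Msi2 line at E12.5, the mRNA changes were 0.092 and -0.080 for Sox3 and -0.26 and 0.11 for Sox11.

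Between C1 and C4 cells, 4-OHT went with Sox2 TE changes of 0.16 and -0.50 and Sox6 mRNA changes of -0.069 and 0.076. The median TE fell by 1.46 on the log2 scale in the C1 pair and by 0.23 in the C4 pair. Both values rest on deposited RPKM and include any shift of its scale.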

How the results depend on the processing

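Of 57 alternative counts of called genes or members, 40 stayed within 1.5 times the count reported. The Dox effect in tetO-Msi1 cells (430 genes) had 100 calls with DESeq2, 9 with the KH2 response subtracted and 0 without the stage as a block. Dox in the 3 lines of E12.5 (54 genes) had 437 without the filter, 0 without the line as a block, and 24 to 510 when a line was left out (510 without KH2, 96 without tetO-Msi1, 24 without tetO-Msi2). 4-OHT in C1 and C4 cells (639 genes) had 1254 without the filter and 0 without the line as a block. Without these blocks, 58, 337 and 1124 genes had an unadjusted p under 0.05. The replicate block here is the line or stage, and no labels pair the libraries otherwise; the stage comparison had 5041 calls without it, against 6039. Floxed against tet lines (8093 genes) had 4819 with the E13.5 libraries added, and its footprint comparison (3829 genes) 2347 to 4319 when a line was left out. TE (2377 genes) had 1530 with over 20 reads, 1059 on length-matched genes only, and 1351 to 2216 when a line was left out. A limit of 1.5-fold placed 3 SOX mRNA changes past it (beside 880 of 10700 genes in tetO-Msi1 cells of E13.5 and 650 of 10879 in C4 cells), against 0 at 2-fold. Centring placed 0 SOX TE changes past the limits, against 1.

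Directions reversed only for changes that had not passed a test. With the KH2 response subtracted, the Dox change in tetO-Msi1 cells was 0.15 for Sox2 and 0.022 for Sox5. When a line was left out, Sox11 with Dox at E12.5 ranged from -0.081 to 0.11, Sox6 between floxed and tet lines from -0.035 to 0.19, and TE from -0.44 to 0.070 for Sox2 and from -0.38 to 0.0023 for Sox6. With E13.5 libraries added, the Sox6 difference between lines was -0.0027. The cause of these shifts was not tested. With the stages, or C1 and C4 cells, fitted alone, no residual degree of freedom remained, so these are values with no test. Footprints of Sox5 (8 to 44 reads in untreated cells) and of the second Sox4 entry (5 reads in untreated C1 cells) are limited by depth.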
